A study of Mus musculus with 2 samples.

Results

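Natural killer (NK) cells of mouse skeletal muscle are described here from 2 single-cell RNA-seq libraries (10X), 1 from limb muscle (quadriceps) and 1 from respiratory muscle (diaphragm). Muscles came from C57BL/6J mice, of which 10 were used for the experiment, and no treatment is given for either group. Age and sex are not given in the sources used here. Each tissue was digested with collagenase B and dispase II for 1 h at 37 °C, mononuclear cells were taken from a Lympholyte-M gradient interface, cells of several muscles were combined per tissue, and viable cells were sorted on light scatter. There was 1 pooled library per tissue, so that tissue, animal pool and library cannot be told apart, no difference could be tested against animals, and every interval below is a 95% interval of counting error alone (exact Poisson for levels, exact binomial for shares).

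A barcode was taken as an NK cell when it held at least 1000 unique molecular identifiers (UMIs, counted mRNA molecules), at most 25% of them from mitochondrial genes, at least 2 of the 4 genes Ncr1, Klre1, Gzma and Klrb1c, at least 1 UMI of Nkg7, fewer than 2 UMIs of Cd3d, Cd3e and Cd3g together, and none of Pdgfra. This found 83 cells of 7658 barcodes. In quadriceps they were 77 of 5159 barcodes, or 1.66% (1.31 to 2.07) of the 4635 that passed the UMI and mitochondrial limits. In diaphragm they were 6 of 2499, or 0.253% (0.0930 to 0.550) of 2370. The intervals of the 2 libraries did not overlap, but such a share also depends on how many other cells a library holds. Stromal cells (fibro-adipogenic progenitors) made up 46.6% of the passing barcodes in quadriceps and 82.8% in diaphragm. The NK share among the other barcodes was not compared. The levels of those 9 genes chose the cells and are therefore given only as a description.

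NK cells are innate lymphocytes that kill infected or transformed cells without a rearranged antigen receptor. They read MHC class I and stress ligands through activating and inhibitory receptors, of which the mouse Ly49 family (Klra genes) and the NKG2 family (Klrc, Klrd1 and Klrk1) lie together in the NK gene complex. On activation they release granzymes and perforin onto the target and secrete interferon gamma and chemokines. Their nearest relatives are the tissue-resident type 1 innate lymphoid cells (ILC1), which share Ncr1 and Klrb1c but lack Eomes in most tissues.

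Of the 77 quadriceps cells, 62 carried all 4 choosing markers, 13 carried 3 and 2 carried 2. The counts in the 6 diaphragm cells were 2, 3 and 1. Granzyme A (Gzma) stood at 11638 CPM (UMIs of the gene, summed over the cells and scaled to 1e+06 UMIs in all) over the quadriceps NK cells, Nkg7 at 3910, Klre1 at 1261, Ncr1, the activating receptor NKp46, at 923, and Klrb1c, which encodes NK1.1, at 845. Just inside the limits were 2 cells with 1 Cd3 UMI and 1 cell with 1 Nkg7 UMI. Just outside were 9 quadriceps barcodes with 2 or more Cd3 UMIs, 1 with a single marker, and 1 with Pdgfra.

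Genes that the rule had not used are given next as a description, not as an independent check of the label. They were measured in the same cells. Ccl5 and Xcl1 are on the marker list of these cells, and the Cd3 limit already acts against T cells. The chemokine gene Ccl5 was seen in all 77 quadriceps cells and all 6 diaphragm cells, and Xcl1, which attracts cross-presenting dendritic cells, in 43 and 6. The T cell genes Cd4, Cd8a, Cd8b1, Cd5 and Cd6 had 0 UMIs in the quadriceps NK cells, which allows up to 9.75 CPM for each (3 UMIs of 307694). The other T cell gene of the list that the rule did not use, Cd28, had 16 UMIs in 13 cells (52 CPM against 241 in T cells). In a clustering of the 4635 quadriceps barcodes, 76 of the 77 fell into 1 cluster of 78 cells. In diaphragm the 6 cells lay in a cluster of 42 together with 34 T cells, so that NK cells formed no cluster of their own there.

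The 250 bases before the annotated start of 3 choosing markers are shown because these genes define the cells. They were taken from RefSeq (GRCm38.p6) on the gene's strand, Ncr1 at chr7:4337465-4337714 (+), Gzma at chr13:113100982-113101231 (-) and Nkg7 at chr7:43436888-43437137 (+). Capitals mark exact matches, on either strand, to TCACAC (core of a T-box site), TGTGGT (RUNX) and AGGAAG (ETS), which occurred in 12.3%, 14.0% and 29.5% of all 32851 RefSeq windows of this length.
Ncr1: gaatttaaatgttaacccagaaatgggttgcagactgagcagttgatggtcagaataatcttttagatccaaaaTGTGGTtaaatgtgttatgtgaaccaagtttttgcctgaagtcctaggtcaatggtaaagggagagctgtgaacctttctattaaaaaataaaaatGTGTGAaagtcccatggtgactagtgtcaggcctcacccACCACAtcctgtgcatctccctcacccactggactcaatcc
Gzma: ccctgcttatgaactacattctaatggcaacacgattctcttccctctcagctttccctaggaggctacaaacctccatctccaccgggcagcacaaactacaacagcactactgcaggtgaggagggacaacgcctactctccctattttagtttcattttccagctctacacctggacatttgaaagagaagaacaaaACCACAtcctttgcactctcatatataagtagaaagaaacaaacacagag
Nkg7: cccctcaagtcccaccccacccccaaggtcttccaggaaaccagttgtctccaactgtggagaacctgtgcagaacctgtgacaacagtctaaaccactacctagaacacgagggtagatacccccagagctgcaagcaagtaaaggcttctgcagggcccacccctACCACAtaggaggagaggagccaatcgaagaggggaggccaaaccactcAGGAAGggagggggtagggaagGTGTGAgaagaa
The Ncr1 window held 1 T-box match and 2 RUNX matches. In Gzma there was 1 RUNX match, 50 bases before the start, and Nkg7 held 1 of each motif. These are letter matches only, and binding was not measured.

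The median quadriceps NK cell held 3609 UMIs (1198 to 16635) and 1531 genes, and the diaphragm cells held 3407 to 6549 UMIs. Their mitochondrial share was low. It passed 5% in 9 of the 77 quadriceps NK cells (11.7%, 5.49 to 21.0), against 95 of 124 T cells (76.6%) and 180 of 210 B cells (85.7%), and in 0 of 6 diaphragm NK cells against 50 of 63 T cells. The medians in quadriceps were 3.20% in NK cells, 5.69% in T cells, 6.28% in B cells, 3.75% in myeloid cells and 3.98% in fibro-adipogenic progenitors (FAPs, the stromal cells of muscle). A limit of 5% would thus keep most NK cells and drop most T and B cells, and the NK share of the barcodes kept would be 3.13%.

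**Figure D1:**
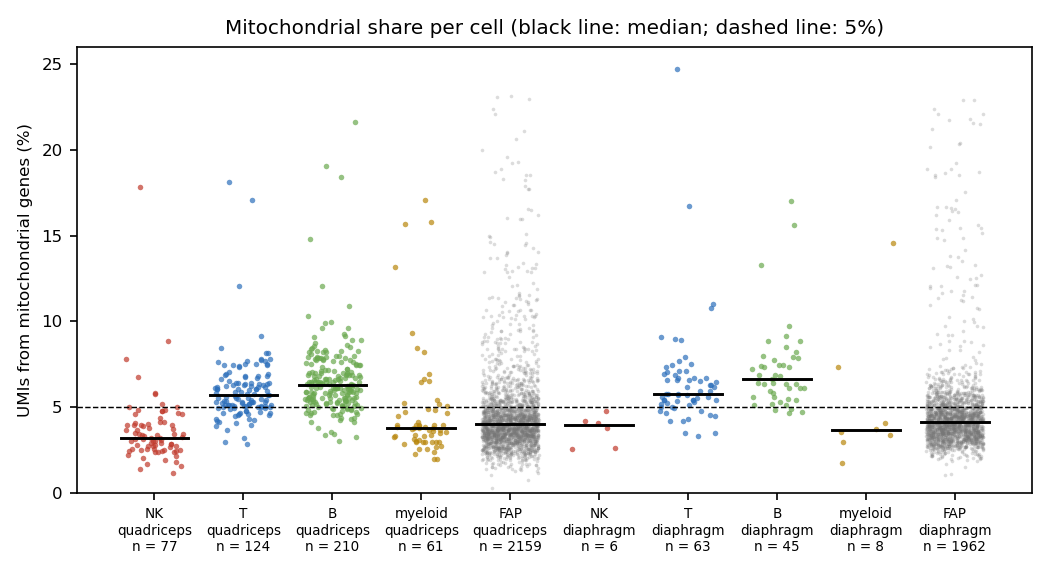
Mitochondrial share of UMIs per cell, in percent, by cell class and library, with a line at 5%. NK cells of quadriceps have a median of 3.20% and lie mostly under the line, where T cells (5.69%) and B cells (6.28%) lie mostly above it.

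UMIs of stromal and smooth muscle genes were found at low counts in most quadriceps NK cells and at high counts in a few. Only 4 cells had no UMI of the 8 listed FAP genes, and 16 had none of the 6 smooth muscle and pericyte genes. The median shares were 0.0554% and 0.0336% of a cell's UMIs. Myeloid, B cell and endothelial genes were absent from most cells (73, 74 and 68 cells at 0). One cell of 16635 UMIs, with 17.8% mitochondrial UMIs, carried 347 UMIs of Acta2 and 153 of Tagln beside 12 of Gzma, 21 of Ccl5 and 4 of Ncr1. Another cell of 5017 UMIs held 57 UMIs of Dcn, 46 of Fmod, 42 of Thbs4 and 36 of Col1a2 beside 17 of Gzma and 29 of Ccl5. These barcodes carry both NK genes and smooth muscle or stromal genes. Without them the level of Acta2 went from 1342 to 231 CPM and that of Dcn from 338 to 164 CPM, and Dcn was seen in 38 cells, the stromal barcode among them. A single cell held 36 of the 37 Cd74 UMIs. The 10 myeloid markers together stood at 13 CPM, with 7 of them at 0.

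NK cells were next set against the 124 T cells of the same quadriceps library, chosen by 2 or more Cd3 UMIs. Genes were compared where the higher class reached 100 CPM, which 1537 did. Of these, 344 (22.4%) were over 2-fold higher in NK cells and 121 (7.87%) over 2-fold lower. The median gene was already 0.49 higher in NK cells (log2 scale, 1 CPM added). After centring on it 160 genes (10.4%) were higher and 216 (14.1%) lower, which moves the higher share of called genes from 74.0% to 42.6%. Folds near 2 therefore depend on the scaling, and those given below are uncentred. Counts within gene lists below are to be read beside these shares of all genes, uncentred or centred. The T class also contained the 9 Cd3-positive barcodes with NK markers, which were 7.26% of its cells but gave 74.2% of its Ccl5 UMIs and 98.4% of its Gzma UMIs. For genes whose fold moved by over 1.5 times when the 9 were left out of the T class, the fold against the other 115 T cells is given as well. Mixed barcodes were described for NK cells only. The 6 smooth muscle and pericyte genes together stood at 2786 CPM in the T class. In NK cells they stood at 2464 CPM, or 413 without the mixed barcodes.

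**Figure D2:**
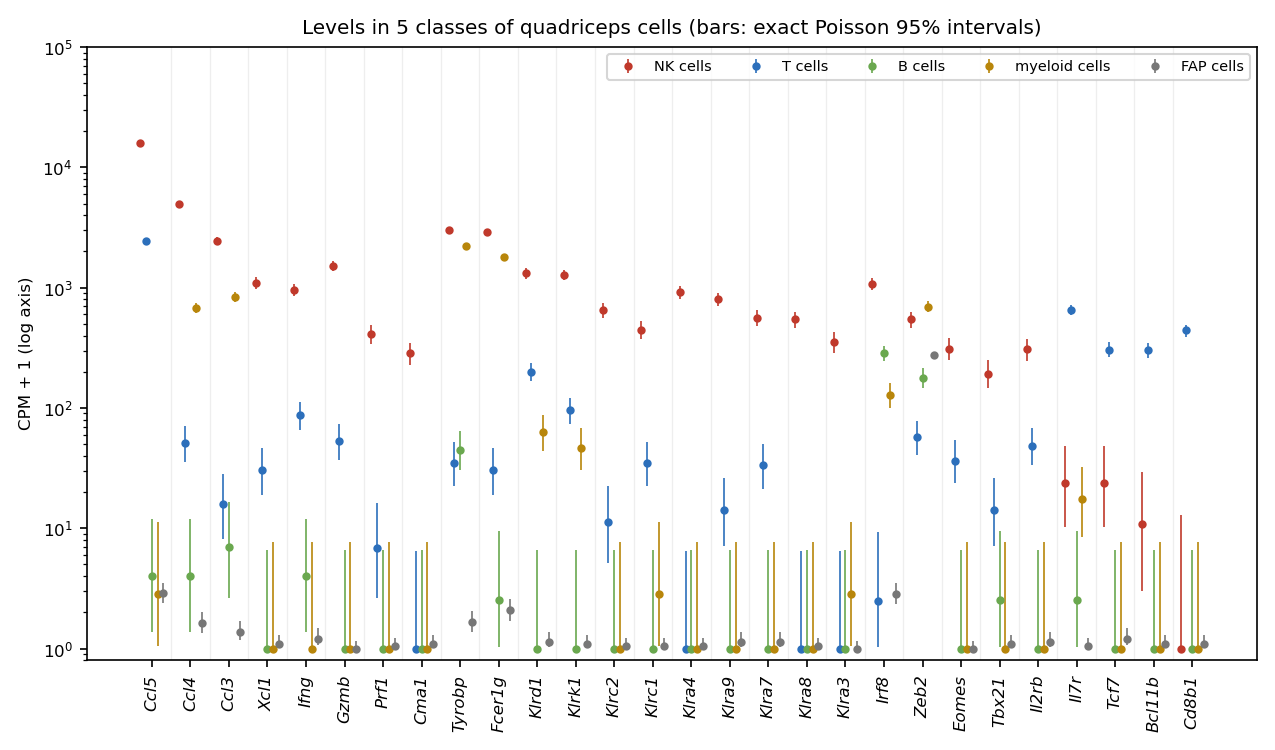
Level of named genes in CPM with 1 added (log axis) in NK cells, T cells, B cells, myeloid cells and FAPs of quadriceps, with exact 95% counting intervals. Gzmb (1511 CPM), Klra4 (910) and Ccl4 (4917) are highest in NK cells among the 5 classes, Tyrobp is shared with myeloid cells (2996 and 2205), and Il7r (22.8 in NK cells, 649 in T cells) is low in NK cells. B cells, myeloid cells and FAPs were chosen without any Nkg7 UMI, which acts against NK genes in them.

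Among the 10 genes with the largest folds over T cells, 4 were Klr genes and 2 of these, Klra4 and Klra8, encode the activating receptors Ly49D and Ly49H. Klra4 stood at 910 CPM (at least 205-fold higher, since no T cell UMI was found), Klra8 at 543 (at least 122-fold), Klra3 at 351 (at least 79.1-fold) and Klrb1b, an inhibitory receptor gene of the NKR-P1 family, at least 42.5-fold higher. The others were Irf8, Cma1, Tnfrsf9, Styk1, Ccl3 and Khdc1a. Irf8, a transcription factor of myeloid, B and NK cells, had 1069 CPM against 1 UMI in T cells (723-fold, 129 to 28633). It also stood at 283 CPM in B cells and 126 CPM in myeloid cells. Cma1, a chymase gene best known from mast cells, had 283 CPM (at least 63.7-fold), and Tnfrsf9, which encodes the costimulatory receptor 4-1BB, had 250 CPM (at least 56.4-fold).

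The 10 genes lowest against T cells included both chains of the CD8 co-receptor. Cd8b1 had 0 UMIs against 439 CPM (at least 45.1-fold lower), Dapl1 0 against 324 (at least 33.2-fold) and Cd8a 0 against 173 (at least 17.8-fold). The lymph node homing receptor Ccr7 had 3.25 CPM against 217 (66.9-fold lower, 11.8 to 2661), and Bcl11b, a transcription factor of T cell identity, 9.75 against 300 (30.8-fold, 10.4 to 151). Gm12840, Rgs10, Tdrp, Ifi27l2a and Klk8 completed the 10. As T cells were chosen on Cd3, their own genes are no independent contrast.

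Cytotoxic granule genes were mostly higher in NK cells than in T cells. Of 10 tested, 8 were over 2-fold higher in NK cells (7 after centring) and 0 lower, with a median log2 difference of 3.04 against 0.49 over all genes. Gzmb, the caspase-activating granzyme, stood at 1511 CPM (1377 to 1655) in NK cells and 51.8 in T cells, 29.2-fold higher (20.7 to 42.4), and all T cell UMIs came from the 9 Cd3-positive barcodes (at least 311-fold higher without them). Perforin (Prf1) stood at 410 CPM (341 to 488), 69.2-fold above T cells (26.4 to 258). The granzyme inhibitor Serpinb9, which protects the killer cell itself, was 25.8-fold higher (40.4-fold without the 9), and the granule cathepsins Ctsw and Ctsd 4.79-fold and 4.81-fold higher. The granule proteoglycan gene Srgn (1.83-fold) and the degranulation marker Lamp1 (1.41-fold) remained under 2-fold. Other granzymes were near absent, with 1 UMI of Gzmk and 0 of Gzmc and Gzmm.

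The cluster on chromosome 14 that holds Gzmb (GRCm38 chr14:55941451-56262260, 15 annotated granzyme, chymase and mast cell protease genes) was read from only 2 genes, Gzmb and Cma1, with 13 at 0 UMIs. Death ligands were less prominent. Fasl stood at 81.2 CPM (11-fold above T cells, 50.1-fold, 8.20 to 2056, without the 9, which left 1 T cell UMI, and under the 100 CPM needed for the count), Tnf at 6.5 CPM, and lymphotoxin beta (Ltb) was 10.5-fold lower than in T cells.

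All 6 chemokine and cytokine genes tested were higher than in T cells (5 after centring, median log2 difference 4.32). Ccl5 led with 15996 CPM (15553 to 16450), 6.55-fold above T cells and 23.1-fold (21.0 to 25.6) above T cells without the 9 barcodes. Ccl4 stood at 4917 CPM (97.8-fold), Ccl3 at 2454 (166-fold), Xcl1 at 1092 (36.9-fold) and Ifng at 962 (11.2-fold). Without the 9 barcodes these folds were 337 for Ccl4, at least 504 for Ccl3, 135 for Xcl1 and 37.1 for Ifng, so that all were larger. Tgfb1 was 2.1-fold higher, which did not hold after centring. With every cell thinned to 1000 UMIs, Xcl1 was seen in 41.6% of NK cells (30.4 to 53.4), 0.806% of T cells and 0% of FAPs, and Ccl4 in 64.9%, 2.42% and 0%. FAPs were chosen without any UMI of Ptprc or Nkg7, so that their 0% is partly set by that choice.

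**Figure D3:**
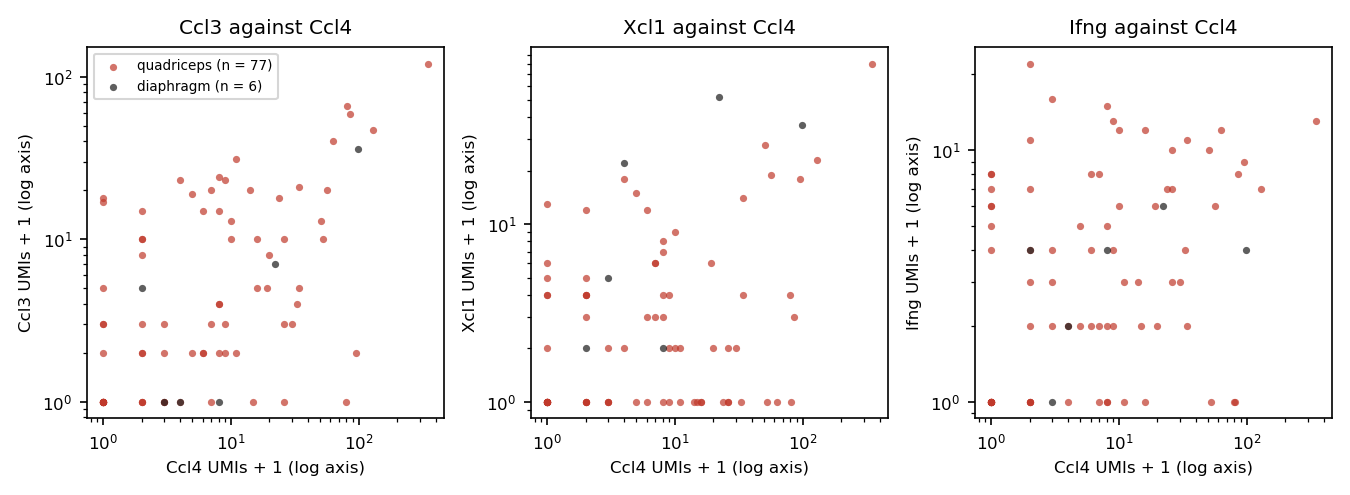
UMIs of Ccl3, Xcl1 and Ifng against UMIs of Ccl4 in the 77 quadriceps (red) and 6 diaphragm (black) NK cells, each point a cell, both axes log with 1 UMI added. Ccl4 runs from 0 to 346 UMIs (median 6 in quadriceps), Ccl3 climbs with it, and 1 cell stands at the upper end of Ccl3 (119) and Xcl1 (79).

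The chemokine genes differed sharply in how they were spread over the cells. Over the 674 genes ranked by variance-to-mean ratio after thinning to 1000 UMIs (median 1.09), Ccl4 was highest at 36.8, followed by Ccl3 at 14.0, Malat1 at 11.0 and Xcl1 at 10.6. The 10 highest cells held 68.2% of the 1513 Ccl4 UMIs, 58.8% of the Ccl3 UMIs and 68.5% of the Xcl1 UMIs, against 26.1% for Ccl5 and 28.7% for Gzma. Thus Ccl5 and Gzma were carried broadly, with medians of 57 UMIs (9 to 171) and 41 (0 to 132) per cell, while Ccl4 had a median of 6 (0 to 346) and Xcl1 of 1 (0 to 79). A single cell of 2970 UMIs held 346 UMIs of Ccl4, 119 of Ccl3 and 79 of Xcl1.

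Ccl3 and Ccl4 went together over the 75 cells left without the pair of mixed barcodes (Pearson's r 0.867 of thinned counts), but this rested partly on that cell, and without it r was 0.610. Ccl4 and Xcl1 had r of 0.865 with it and 0.415 without, and Ccl3 and Xcl1 0.737 and 0.103. Ccl4 and Ifng had r of 0.198 with that cell and 0.119 without. These are descriptions over cells of 1 library that share its depth. Also among the most variable were Tagln (9.56), Col1a2 (9.16) and Acta2 (8.13), which fell to 0.892, 0.959 and 0.879 without the pair of mixed barcodes, and Actb (6.89), Hspa1a (6.69) and Rgs2 (5.85), a regulator of G protein signalling.

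The Ly49 genes were then examined one by one, since each NK cell is known to express its own subset of them. Of 11 listed, 6 reached the level for comparison and all 6 were higher than in T cells (median log2 difference 7.14). Klra4 and Klra8 are given above. Klra9 stood at 803 CPM (706 to 909), 60.3-fold above T cells, Klra7, encoding the inhibitory receptor Ly49G, at 556 (17.1-fold), and Klra1, encoding Ly49A, at 146 (2.53-fold). Without the 9 barcodes the T class kept 3 UMIs of Klra9 (165-fold, 55.8 to 805) and 1 of Klra7 (343-fold, 60.7 to 13609). Klra1 did not hold: with mitochondrial share at most 5% it was lower in NK than T cells (log2 difference -0.85), and without the 9 barcodes in T cells it was 22.5-fold higher (8.22 to 86.3). Klra5 and Klra6 had 5 and 2 UMIs, and Klra2, Klra10 and Klra17 had 0.

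**Figure D4:**
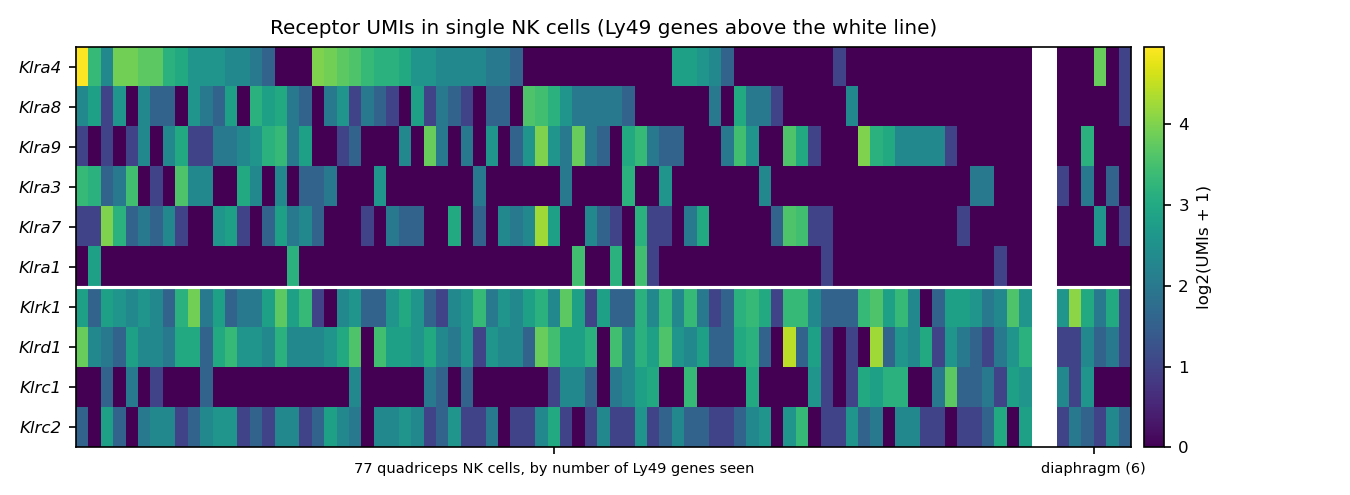
UMIs (colour, log2 with 1 added) of 6 Ly49 genes and, under the white line, Klrk1, Klrd1, Klrc1 and Klrc2 in each of the 77 quadriceps and 6 diaphragm NK cells (columns). In quadriceps each Ly49 gene is seen in some cells only (Klra1 in 8, Klra9 in 50), whereas Klrk1 is seen in 75 and Klrd1 in 72.

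Cell by cell, Klra9 was seen in 50 of 77 cells, Klra8 in 44, Klra7 in 42, Klra4 in 39, Klra3 in 23 and Klra1 in 8, whereas Klrk1 (NKG2D) was seen in 75, Klrd1 (CD94) in 72, Klrc2 (NKG2C) in 67 and Klrc1 (NKG2A) in 33. The number of Ly49 genes seen per cell was 0 in 2 cells, 1 in 14, 2 in 11, 3 in 30, 4 in 16 and 5 in 4. At least 1 activating gene (Klra4 or Klra8) and 1 inhibitory gene were seen together in 53 cells, inhibitory genes alone in 19, activating genes alone in 3 and neither in 2. Klra4 and Klra8 were both seen in 27 cells, only Klra4 in 12, only Klra8 in 17 and neither in 21. The highest Ly49 counts in a cell were 30 UMIs for Klra4, 18 for Klra7 and 15 for Klra9. A gene with no UMI in a cell may still be expressed there at this depth.

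Some Ly49 genes are near copies of each other, so that their reads can be assigned wrongly or lost. The last 300 bases of the longest annotated Klra3 and Klra9 transcripts, where 3′ counting reads fall, were 98.7% identical (296 bases), so that the 351 CPM of Klra3 and the 803 CPM of Klra9 are uncertain. Klra1 and Klra4 were 83.2% identical there, Klra3 and Klra8 80.3%, and Klrk1 and Klrd1, outside the Ly49 family, 51.8%. Other Ly49 pairs were less alike, down to 56.4% for Klra3 and Klra7, with the activating pair Klra4 and Klra8 at 57.2%. The upstream windows are shown for the activating pair Klra4 at chr6:130067272-130067521 (-) and Klra8 at chr6:130129899-130130148 (-), and for the inhibitory pair Klra3 at chr6:130337627-130337876 (-) and Klra9 at chr6:130193113-130193362 (-), from RefSeq, GRCm38.p6. They are all in lower case because none held a match to the 3 motifs named above.
Klra4: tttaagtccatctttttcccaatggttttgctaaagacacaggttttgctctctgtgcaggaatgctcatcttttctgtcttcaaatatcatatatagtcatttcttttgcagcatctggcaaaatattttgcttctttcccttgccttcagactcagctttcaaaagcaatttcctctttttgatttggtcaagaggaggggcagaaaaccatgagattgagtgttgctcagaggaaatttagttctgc
Klra8: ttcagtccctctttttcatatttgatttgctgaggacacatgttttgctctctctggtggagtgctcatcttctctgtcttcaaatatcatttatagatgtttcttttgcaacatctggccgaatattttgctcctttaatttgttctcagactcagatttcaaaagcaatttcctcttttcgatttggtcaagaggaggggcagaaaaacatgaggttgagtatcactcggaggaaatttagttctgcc
Klra3: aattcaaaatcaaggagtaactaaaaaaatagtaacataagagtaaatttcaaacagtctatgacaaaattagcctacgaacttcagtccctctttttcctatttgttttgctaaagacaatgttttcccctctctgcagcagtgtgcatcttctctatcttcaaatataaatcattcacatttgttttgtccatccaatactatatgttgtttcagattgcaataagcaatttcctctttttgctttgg
Klra9: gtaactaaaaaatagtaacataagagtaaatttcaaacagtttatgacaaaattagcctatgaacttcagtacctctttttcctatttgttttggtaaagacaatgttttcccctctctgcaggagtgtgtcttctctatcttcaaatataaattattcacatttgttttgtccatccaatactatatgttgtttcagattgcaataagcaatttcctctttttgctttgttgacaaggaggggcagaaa
Klra4 and Klra8 were 84.5% identical in this window and Klra3 and Klra9 83.6%, against 47.9% for Ncr1 and Gzma. A gene of one pair and a gene of the other were 41.9% (Klra3 and Klra8) to 48.6% (Klra8 and Klra9) identical.

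The NK gene complex as annotated in GENCODE (GRCm38 chr6:128609227-131247362) held 24 Klr genes, of which 16 stood at 100 CPM or more in quadriceps NK cells and 4 had no UMI. Klrd1 (chr6:129591782-129598775), the partner chain of NKG2 receptors, stood at 1310 CPM (6.56-fold above T cells, 9.85-fold without the 9 barcodes). Klrk1 (chr6:129610323-129623864) stood at 1271 CPM, 13.4-fold and 49.0-fold. Klrc2 was 62.5-fold and Klrc1 13-fold higher than in T cells, and without the 9 barcodes at least 133-fold and 136-fold (37.0 to 1136). Among the other listed NK receptors, Klri2 (231 CPM against 1 UMI, 156-fold, 27.1 to 6246, and at least 47.4-fold without the 9), Slamf7 (182 CPM, 13.7-fold and 28.0-fold without the 9), Klrg1 (153 CPM, 25.8-fold) and Cd244 (136 CPM, 30.8-fold) were higher. In all 11 of 12 receptors tested were higher and 1, Slamf6, 10.5-fold lower (4.36 to 32.9).

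The receptors signal through a few adapters. DAP12 (Tyrobp) stood at 2996 CPM (2806 to 3196), 88.1-fold above T cells (58.3 to 140), and the Fc receptor gamma chain (Fcer1g) at 2899 CPM, 98-fold (63.1 to 161). Without the 9 barcodes Tyrobp was at least 616-fold and Fcer1g 893-fold (247 to 7389) higher. Both were also high in myeloid cells (2205 and 1790 CPM). DAP10 (Hcst), the partner of NKG2D, was less than 2-fold above T cells (624 and 394 CPM), Lat was 4.91-fold lower, and the zeta chain gene Cd247 stood at 136 against 200 CPM. Of 10 adapter genes tested 5 were higher (Tyrobp, Fcer1g, Fyn, Sh2d1a and Sh2d2a) and 1 lower. After centring 2 were higher and 3 lower, so that of the 5 only Tyrobp and Fcer1g passed under both scalings.

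Of 14 transcription factors tested, 8 were higher (6 after centring) and 2 lower. Eomes, which sets conventional NK cells apart from ILC1, stood at 309 CPM (250 to 377), 8.7-fold above T cells (5.51 to 14.2), and Tbx21 (T-bet) at 192 CPM, 14.4-fold. Without the 9 barcodes these were 13.6-fold (7.72 to 25.8) and 59.1-fold (15.7 to 499). Id2, which blocks the T and B cell programmes, was 3.87-fold higher, Zeb2, a factor of late NK maturation, 9.65-fold (33.5-fold without the 9), and Prdm1 9.03-fold. Klf2 stood at 1664 and 1617 CPM. The 2 that were lower were Tcf7, of early lymphocytes and naive T cells (13.4-fold), and Bcl11b.

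Lists for conventional NK cells and for ILC1 went opposite ways against T cells. Of 10 conventional NK genes 9 were higher (median log2 difference 5.85), and of 5 ILC1 genes 5 were lower (median -3.37), but T cells themselves carry the ILC1 genes and the rule excluded T cell genes. The 9 are also counted in the Ly49, granule, transcription factor or homing lists and are no separate result. Il7r had 7 UMIs, all in 2 cells (22.8 CPM, 28.5-fold below T cells, 13.7 to 71.4), Cxcr6 stood at 13 CPM (9.22-fold lower), Gpr183 at 13 CPM and Tmem176a at 26 CPM, and Itga1 (CD49a), too low to compare, at 9.75 CPM. Within single cells, UMIs of conventional genes numbered 1 to 59 (median 19) and of ILC1 genes 0 to 15 (median 0, with 58 cells at 0). The ILC1 genes were higher in 2 of 77 quadriceps cells, with 12 against 2 and 9 against 1 UMIs, and neither cell had a UMI of Gzma, Eomes or Irf8. The same was seen in 1 of 6 diaphragm cells, with 12 ILC1 UMIs against 0, and 9 UMIs of Ncr1, 6 of Klrb1c, 3 of Cxcr6 and 9 of Thy1. These 3 cells met the rule without Gzma.

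Late-stage genes of NK maturation were mostly higher than in T cells, and early-stage genes went both ways. Of 8 late genes tested 7 were higher (median log2 difference 3.86), with Itgam (CD11b) at 195 CPM, 65.9-fold above T cells (120-fold, 20.8 to 4826, without the 9 barcodes). Of 9 early genes 5 were lower and 3 higher, with Thy1 3.68-fold and Emb 3.67-fold lower, and Ctla2a 4.14-fold and Cd7 2.55-fold higher. The early list shares Il7r and Ltb with the ILC1 list. The 7 late genes that were higher are all counted in other lists as well, so that they are no separate result. T cells carry the early genes that were lower and are not a stage of NK maturation. These counts against T cells therefore do not place the NK cells at a stage. Cd27, lost late in NK maturation, stood at 74.8 CPM. By UMI detection, 34 quadriceps cells carried Itgam only (44.2%, 32.8 to 55.9), 13 Cd27 only (16.9%), 3 both and 27 neither. Cells with Cd27 had more UMIs (medians of 4989 for Cd27 only and 3651.5 for Itgam only), so these shares depend on what could be seen at this depth.

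Cells with Itgam only and cells with Cd27 only differed in effector genes, without a replicate to test it. Gzmb stood at 2141 CPM (1896 to 2409) in the former and 747 (547 to 996) in the latter, Gzma at 14609 and 7580 CPM, Ccl3 at 3254 and 1039, and Ifng at 1237 and 601. Ccl4 stood at 6276 and 3003 CPM, but without the cell of 346 Ccl4 UMIs and the stromal barcode at 3687 (3359 to 4037) and 3269 (2815 to 3776), with overlapping intervals. Without the same pair of cells Gzmb stayed at 2184 (1933 to 2457) and 795 (580 to 1064), Gzma at 14699 and 7952, and Ccl3 at 2389 and 1131. Klrg1 (178 and 48.7 CPM) and Spn (255 and 81.2), both of late NK cells, lay on the same side. On the other side were Emb (30.9 and 146 CPM), Cd7 (170 and 390), Ltb (7.73 and 97.4) and Cd226 (7.73 and 130), while the early-list genes Xcl1 (1353 and 649) and Ctla2a (680 and 519) were higher with Itgam. Without the same pair of cells Xcl1 stood at 759 and 707 CPM. In all, 3 Tcf7 UMIs were found in the Cd27 cells and 0 in the Itgam cells. Gzmb, Gzma and Ccl3 were thus higher in the cells that carried Itgam also without that pair. The set with Cd27 only still held 1 of the ILC1-rich cells, with 6 UMIs of Il7r and 0 of Gzma. Another cell of that set, with 7181 UMIs, also had 0 of Gzma, and a single cell held 39 of its 64 Ccl3 UMIs. The contrast was not repeated without these cells. Eomes stood at 271 and 406 CPM.

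Of 8 cytokine receptor genes tested 6 were higher and 1, Il7r, lower. Il2rb, the chain shared by the interleukin-2 and interleukin-15 receptors, stood at 306 CPM (6.45-fold), Il18rap at 338 (10.4-fold), Il18r1 at 292 (3.04-fold) and Ifngr1 at 942 (3.5-fold), and Il12rb2 had 101 CPM against no UMI in T cells (at least 22.7-fold). These are receptors for the cytokines that activate NK cells. Of 15 homing genes 7 were higher and 3 lower, among them the integrin chain Itgb2 (351 CPM, 5.05-fold higher), while S1pr1, a receptor for exit from tissue, was 4.51-fold lower (32.5 against 146 CPM). S1pr5, of the late-stage list and under the 100 CPM needed for the count, went the other way. It stood at 84.5 CPM, 52.1-fold (8.56 to 2135) above T cells without the 9 barcodes, which left 1 T cell UMI. Centring left 4 of the 15 homing genes higher and 3 lower, beside 10.4% and 14.1% of all genes. Cd69, an early activation marker, was within 2-fold (465 and 359 CPM).

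MHC class I, stress and proliferation genes were counted in the same way, beside the 22.4% of all genes that were higher. Of 12 MHC class I genes 2 were higher, H2-K1 (4303 and 2117 CPM) and H2-Q6 (630 and 237), and 0 after centring. B2m stood at 2038 and 1740 CPM. The heat shock gene Hspa1a stood at 4290 CPM in NK cells, 3584 in T cells, 10113 in B cells and 6245 in myeloid cells, and 0 of 8 heat shock genes passed 2-fold. Of 13 immediate early genes 4 were higher (Nr4a1, Ier5, Egr1 and Nfkbia), of which 1 was left after centring. Mki67, Birc5 and Cdk1 had 0 UMIs in NK cells. Other genes of the cell cycle list were seen there, Pcna with 20 UMIs, Top2a with 6, Mcm5 with 5 and Tyms with 4. None of these reached the level for comparison. The 2 cell cycle genes tested were lower, Tubb5 2.09-fold and Stmn1 2.09-fold, but neither held without the 9 barcodes. Tubb5 was then at 0.539 of the T cell level, and for Stmn1, with 47 of its 69 T cell UMIs in the 9, the direction turned (log2 difference 0.44).

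The diaphragm gave only 6 NK cells and 29088 UMIs, so that a gene with no UMI there can stand at up to 103 CPM. The limit for comparison was therefore set at 500 CPM in the higher library, which 306 genes reached. Of these, 26 (8.5%) were over 2-fold higher in diaphragm and 11 (3.59%) over 2-fold lower, with a median log2 difference of 0.13. Centring gave 18 and 17, and moved the higher share of called genes from 70.3% to 51.4%. Because 6 cells carry each value, counts of single cells are given for the genes described.

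**Figure D5:**
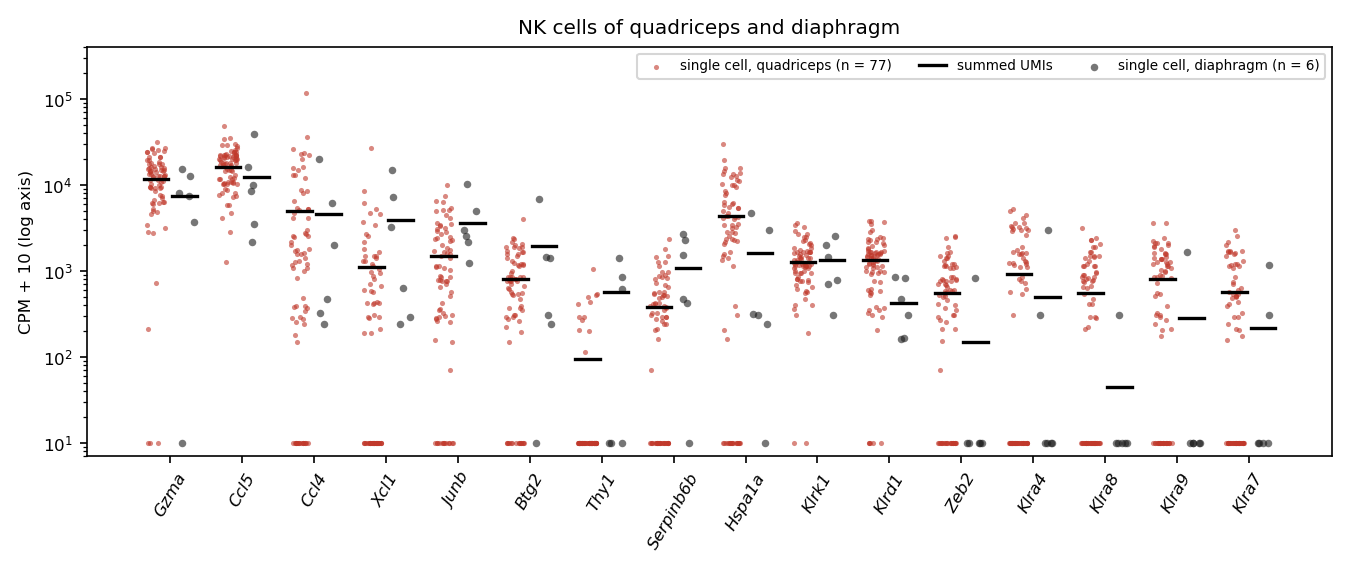
Level per cell (CPM of the cell's own UMIs with 10 added, log axis) of named genes in the 77 quadriceps (red) and 6 diaphragm (black) NK cells, with lines at the level over summed UMIs. The 6 diaphragm cells spread widely for Xcl1 and Ccl4, and all lie under the quadriceps line for Klrd1 (1 to 4 UMIs).

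The 8 largest rises in diaphragm were Rrad, Thy1, Nrip1, Serpina3g, Vps37b, Hsph1, S100a4 and Xcl1. Rrad, a small GTPase, stood at 516 against 26 CPM (19.8-fold, 7.89 to 54.0), but a single cell held 14 of its 15 UMIs. Vps37b, of endosomal sorting, stood at 1616 against 361 CPM (4.48-fold, 3.11 to 6.35), and its 9, 4, 4, 7, 17 and 6 UMIs were spread over all 6 cells against a median of 1 in quadriceps. Xcl1 stood at 3885 against 1092 CPM (3.56-fold, 2.85 to 4.42), but the 6 cells held 21, 4, 35, 1, 1 and 51 UMIs, so that 3 cells carried it. Thy1 (6.51-fold, 3.26 to 12.6) had 4, 9, 0, 0, 3 and 0 UMIs, most of them in the cell rich in ILC1 genes. That cell also held all 15 UMIs of S100a4. Serpina3g had 2, 5, 10, 0, 0 and 0 UMIs, Nrip1 2, 1, 6, 6, 1 and 0, and Hsph1 1, 5, 7, 1, 0 and 3. Ccl4 was likewise carried by few cells, with 3, 2, 98, 1, 7 and 21 UMIs.

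Of the 8 largest falls in diaphragm, 2 (Acta2 and Tagln) turned mostly on the single smooth muscle barcode of quadriceps. The other falls included 3 receptor genes. Klra8 had 1 UMI in the 6 cells (34.4 against 543 CPM, 15.8-fold lower, 2.80 to 627), Klrd1 stood at 413 against 1310 CPM (3.17-fold lower, 1.80 to 6.20) with 1, 1, 4, 2, 3 and 1 UMIs (median of 5 in quadriceps), and Klra9 at 275 against 803 (2.92-fold lower, 1.46 to 6.84). Klrd1 thus lay under the quadriceps median in every diaphragm cell. The cells with 3 and 4 UMIs were still within the quadriceps quartiles (3 and 7), and 5 quadriceps cells had no Klrd1 UMI. All 8 Klra9 UMIs of diaphragm lay in 1 cell. The number of Ly49 genes seen per cell had a median of 1.5 in diaphragm and 3 in quadriceps, although the diaphragm cells held more UMIs. Zeb2 (138 against 543 CPM, 3.95-fold lower, 1.51 to 14.7, all 4 UMIs in 1 cell), Dusp2 (2.87-fold) and Hspa1a (1581 against 4290 CPM, 2.71-fold, 2.02 to 3.72) completed the falls. Dusp2 had 2, 0, 3, 0, 1 and 3 UMIs in the 6 cells and Hspa1a 2, 19, 23, 1, 0 and 1, so that Hspa1a was low in 4 of them. Gzma had 48, 0, 75, 55, 13 and 27 UMIs and Ccl5 14, 22, 192, 43, 57 and 29, so that Ccl5 was present in all 6 cells and Gzma in 5.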

How the data were processed

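Cells of 2 mouse muscle libraries (10X) were measured. The deposited files held raw UMI counts of 27998 genes per barcode, made by the authors with Cell Ranger 3.0.0 and Seurat on mm10, per the submitters' processing notes, without normalization. The libraries held 50854519 UMIs (quadriceps) and 28545242 UMIs (diaphragm). Members were chosen by the stated rule, and the T, B, myeloid and FAP classes by 2 or more UMIs or genes of their own markers. T cells also had no UMI of Pdgfra or Cd79a. B and myeloid cells had no UMI of Pdgfra or Nkg7 and fewer than 2 Cd3 UMIs, and FAPs had no UMI of Ptprc or Nkg7. The UMIs of a class were added up and scaled to CPM. Folds used a pseudocount of 1 CPM and were called past 2-fold among genes with at least 100 CPM (NK against T cells) or 500 CPM (tissues) in the higher group, leaving out the genes of the rules. Intervals were exact at 95%, and a gene at 0 was given a floor of 3 UMIs over the class. Shares of cells were taken after thinning to 1000 UMIs. UMIs in cells are not replicates, so no test was run. The steps were checked on simulated Poisson counts of whole classes. These had no variation between cells, so the check does not cover genes spread unevenly over cells.

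The members and gene lists were chosen with earlier results of these data known. Of 272 listed symbols 264 matched the files, and the remaining 8 (Trac, Trbc1, Trbc2, Trdc, Tcrg-C1, Ighm, Ighd and Igkc) were not analysed here. Values of some listed genes are not reported here. Genes were named by a fixed rule: list members with the highest CPM, defining members, the 10 largest folds each way against T cells, the 8 largest each way between tissues, and the 10 most variable. The Cd27 and Itgam levels outside this rule, the counts in single cells and the genes of the mixed barcodes were chosen after their values were seen. Doublets were called with Scrublet (1.94% of quadriceps and 0.169% of diaphragm barcodes, the latter too few to have worked) and kept, among them 2 quadriceps NK cells. The libraries shared 5 barcodes, none of an NK cell. Sequences were from RefSeq and gene positions from GENCODE. Python 3.11.15, numpy 2.4.6, scipy 1.17.1, pandas 2.3.3, scanpy 1.11.5, leidenalg 0.10.2 and matplotlib 3.10.9 were used. Alternatives varied the UMI, mitochondrial, marker, Cd3, fold and CPM limits, the pseudocount, the scaling, doublets and class members.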

Additional observations from a re-analysis of the deposited data

Results flagged for a closer look

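Barcodes left out of the NK cells by their Cd3 UMIs also carried NK markers. In quadriceps 9 barcodes met every condition for an NK cell except that they held 2 or more Cd3 UMIs, and in diaphragm 1 did. The 9 were counted among the T cells and were not described on their own. The 9 held 2663 to 14405 UMIs (median 5362). Ccl5 stood at 20572 CPM (19436 to 21757) over them, above the 15996 CPM of the NK cells, and Gzma at 6163 CPM, seen in 5 of the 9. Klre1 stood at 823 CPM, Tyrobp at 386 and Fcer1g at 302, while Irf8, at 1069 CPM in NK cells, had 0 UMIs. Cd8a or Cd8b1 was seen in 6 of the 9 and Cd4 in 0. What these barcodes are was not tested.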

How the results depend on the processing

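No paired analysis was possible because each tissue had 1 library, and for the same reason no replicate could be left out. The NK share moved at a mitochondrial limit of 5% in quadriceps (3.13%) and, with the Leiden cluster holding the members in place of the rule, in diaphragm (1.77%, mostly T cells). Against T cells, genes higher and lower numbered 705 and 199 at 50 CPM, 3068 and 2461 with no filter, 106 and 36 at 4-fold, and 160 and 216 after centring. In the other settings they were 296 to 402 and 115 to 132, but the genes themselves changed more than these totals. At the mitochondrial limit of 5%, which left 29 T cells, 329 were higher and 126 lower. Of these, 241 and 88 were among the 344 and 121 of the main setting. Between tissues they numbered 503 and 252 at 100 CPM, 1594 and 6123 with no filter, and 5 and 3 at 4-fold. The lower genes numbered 19 with at least 3 of the 4 markers and 17 after centring. Klra1 turned to a log2 difference of -0.85 at 5% and Stmn1 to 0.44 without NK-marker barcodes in the T class. Of the other values of single genes against T cells, 1141 stayed and 105 moved without turning. The cause of these shifts was not tested. Depth limits the diaphragm most, where 3 UMIs amount to 103 CPM.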
